A study of Mus musculus with 24 samples.

Results

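The endocannabinoid system of skeletal muscle was examined here through 9 genes: the cannabinoid receptors Cnr1 and Cnr2, the synthetic enzymes Dagla, Daglb and Napepld, and the degrading enzymes Mgll, Abhd6, Abhd12 and Faah. The genes were taken by name for their known roles, with earlier results of these data known, and all 9 were found among the 54532 Ensembl genes of each count file. RNA had been sequenced from the left gastrocnemius, a calf muscle, of wild-type C57/BL6 mice, with 24 samples in 6 groups of 4. Each sex had a control group, which was sedentary and received saline of pH 7.2, a sedentary pain group and an active pain group. Pain was produced with acid of pH 5.0, and the active animals had running wheels for 8 weeks beforehand. All animals had 2 injections of 20 µl into the muscle, spaced by 5 days, and in the pain groups 6 min of electrically stimulated contraction directly preceded the second. Every sample carried a time label of 24 h, and the age of the animals was not given. Controls had neither acid nor contraction, and no active group without pain was present, so acid and contraction cannot be told apart, and running was measured only together with pain. The labels do not say how the 4 samples of a group relate to cages or litters, and p-values measure the spread between these samples.

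Endocannabinoids are lipid messengers that cells make on demand from membrane phospholipids. The main ones are 2-arachidonoylglycerol (2-AG), which diacylglycerol lipases release from diacylglycerol, and anandamide, which NAPE-PLD can release from N-acyl phosphatidylethanolamines. Both act on the G protein-coupled receptors CB1, abundant on neurons, and CB2, found mainly on immune cells. The signal ends when 2-AG is hydrolysed by monoacylglycerol lipase, ABHD6 or ABHD12, and anandamide by fatty acid amide hydrolase. Inhibitors of these hydrolases and agonists of the receptors reduce pain behaviour in rodents.

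The count totals ran from 17612139 to 34039699 per sample. Values are given as CPM, a gene's counts scaled to a common library total, after trimmed mean of M-values (TMM) scaling over the 24 samples, and group values as mean ± SD with n = 4. The tissue label was checked with 8 muscle fibre markers, all counted in every sample, which together held 92563 to 219027 CPM. The summed CPM of 10 macrophage markers was 103 to 226 in female controls and 69.1 to 154 in male controls. In female sedentary pain the sums were 462, 718, 3921 and 5494 in replicates 1 to 4, and in female active pain they ran from 262 to 497. Male sedentary pain had macrophage sums of 796, 148, 224 and 495, and male active pain sums of 243, 505, 238 and 408, so that all active pain samples and 3 of 4 sedentary pain samples were above every male control. Among males 2 libraries stood apart in neutrophil markers: sedentary pain replicate 1 had a macrophage sum of 796 and a neutrophil sum of 299, against neutrophil sums of 2.20 to 2.69 in its group, and active pain replicate 2 had sums of 505 and 78.0, against neutrophil sums of 3.20 to 8.14 in its group. Sedentary pain replicate 4, with its macrophage sum of 495, had a neutrophil sum of 2.69, with Cnr2 at 0.327, Abhd12 at 25.6 and Napepld at 21.7 CPM. Among female controls, replicates 3 and 4 stood apart in fat cell markers: Adipoq was at 374 and 178 CPM there and at 28.1 and 16.3 CPM in replicates 1 and 2. None of the marker genes on the 9 cell type lists was at 0 in all samples. A number in the library names is 20 or lower for replicates 1 and 2 and 25 or higher for replicates 3 and 4 of every group, and values within these subsets are given where they change a result.

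Levels were first ordered between genes on a per-length scale, CPM per kilobase of exon, as the median over the 24 samples. Abhd12, a membrane-bound serine hydrolase, had the highest median level at 10.4 CPM per kilobase. It was followed by Mgll, which encodes monoacylglycerol lipase, at 7.69, and by Napepld, which encodes NAPE-PLD, at 5.39. Dagla was at 3.37, Abhd6 at 2.38 and Daglb at 2.07 CPM per kilobase. The receptors and the anandamide hydrolase lay far lower, with Cnr2 at 0.0729, Cnr1 at 0.0309 and Faah at 0.0301 CPM per kilobase. Mgll was above Napepld, and Napepld above Dagla, in 24 of 24 samples. Abhd12 was above Mgll in 20 samples and Dagla above Abhd6 in 22. Abhd6 and Daglb had no clear order, since Abhd6 was the higher in 14 of 24 samples, and the same held for Cnr1 and Faah, also 14 of 24. Only between Daglb and Cnr2 were the ranges of neighbours apart, and each of the 6 enzymes from Abhd12 to Daglb was higher in every sample than Cnr2, Cnr1 and Faah. Over all 24 libraries Cnr1 had 142 counts, Faah 218 and Cnr2 465, whereas Mgll had 30291.

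**Figure D1:**
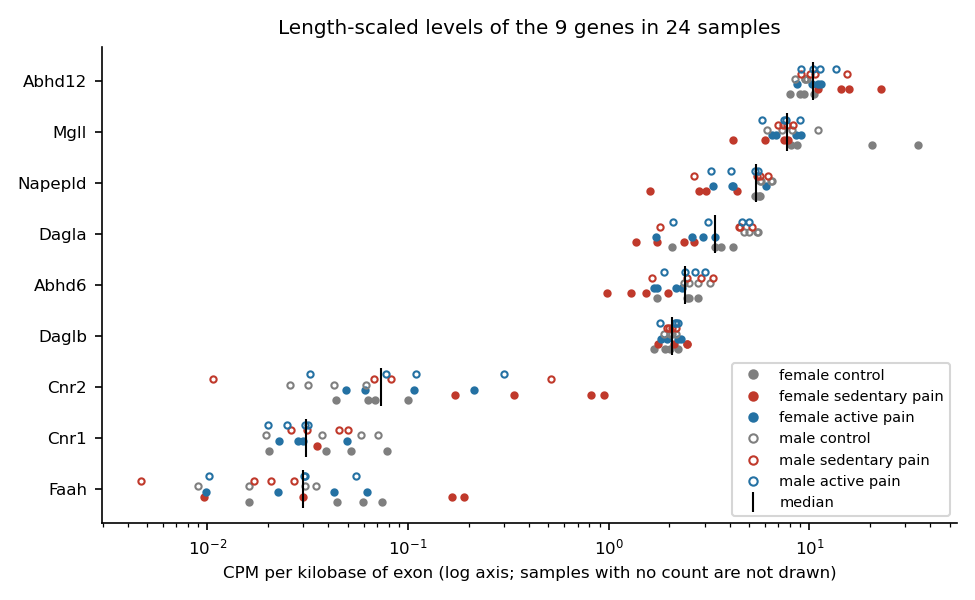
Length-scaled level of each of the 9 genes (log horizontal axis, CPM per kilobase of exon), 1 point per sample, with females filled, males open and the median as a black bar. The 6 enzymes from Abhd12 to Daglb lie between 0.984 and 34.8 CPM per kilobase, and Cnr2, Cnr1 and Faah lie below them in every sample.

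Promoter sequences of 4 genes that changed in the comparisons described next are shown, because 3 of these genes fell and 1 rose in the same samples. Each is a window of 300 bases around the RefSeq start nearest to the gene's annotated start, most of it upstream, in build GRCm38.p6. RefSeq windows were matched for 7 of the 9 genes, and Dagla and Abhd12 were without an entry. Cnr2 rose and lies at chr4:135894939-135895238, plus strand. The window of Mgll, which fell, is at chr6:88724162-88724461, plus strand. Abhd6 and Napepld also fell, and their windows are at chr14:8002638-8002937, plus strand, and chr5:21701573-21701872, minus strand. Sequences run 5′ to 3′ on the gene's strand, and capitals mark 1 motif match in each of Mgll, Abhd6 and Napepld.
Cnr2: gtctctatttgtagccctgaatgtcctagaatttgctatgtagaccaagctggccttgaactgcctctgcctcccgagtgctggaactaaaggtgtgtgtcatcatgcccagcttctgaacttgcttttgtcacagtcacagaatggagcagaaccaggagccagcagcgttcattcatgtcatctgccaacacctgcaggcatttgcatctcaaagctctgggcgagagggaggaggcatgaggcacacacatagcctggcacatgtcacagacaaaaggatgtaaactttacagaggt
Mgll: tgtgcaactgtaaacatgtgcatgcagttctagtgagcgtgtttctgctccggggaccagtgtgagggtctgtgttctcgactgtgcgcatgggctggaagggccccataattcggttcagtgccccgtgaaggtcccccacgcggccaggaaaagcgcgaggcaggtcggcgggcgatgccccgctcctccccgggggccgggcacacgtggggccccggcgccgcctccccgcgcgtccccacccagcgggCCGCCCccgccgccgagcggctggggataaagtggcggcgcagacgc
Abhd6: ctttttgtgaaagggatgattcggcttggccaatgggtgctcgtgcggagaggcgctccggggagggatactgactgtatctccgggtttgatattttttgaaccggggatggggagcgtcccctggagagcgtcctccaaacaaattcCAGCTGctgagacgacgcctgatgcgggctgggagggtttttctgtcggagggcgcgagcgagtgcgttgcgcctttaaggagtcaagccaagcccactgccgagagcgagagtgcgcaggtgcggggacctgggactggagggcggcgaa
Napepld: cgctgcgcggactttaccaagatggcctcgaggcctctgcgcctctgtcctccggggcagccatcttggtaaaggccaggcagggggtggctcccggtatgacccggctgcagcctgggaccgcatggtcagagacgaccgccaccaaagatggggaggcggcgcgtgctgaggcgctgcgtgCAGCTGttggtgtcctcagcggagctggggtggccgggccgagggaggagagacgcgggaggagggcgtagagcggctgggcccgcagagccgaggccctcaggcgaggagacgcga
In these sequences 5 motifs were searched on both strands: the PU.1 box GAGGAA, the interferon-stimulated response element, the myogenic E-box CAGCTG, the GC box GGGCGG and the nuclear receptor element AGGTCA. The Cnr2 window held no match, and it had 50% GC and 3 CpG dinucleotides, where 31.0% of 32534 RefSeq promoters of this length had that number or fewer. The Mgll, Abhd6 and Napepld windows were richer, with 32, 24 and 28 CpG dinucleotides against a median of 7. The windows of Cnr1, Faah and Daglb, members without a call, were above that median as well, with 33, 16 and 11. CAGCTG was present in the windows of Abhd6, at position -101, and Napepld, at position -67, counting from 0 at the RefSeq start to the first base of the match. It was also present in Daglb, which did not pass the test in any comparison, and in 16.4% of all promoters. The Mgll window held the GC box at position 3 on its minus strand, printed as CCGCCC, a motif found in 35.9% of all promoters. The shares for GAGGAA, the interferon element and AGGTCA, none of which matched in the 4 windows, were 28.1%, 3.45% and 16.3%. The Abhd6 window held the GC box at position 40, which is printed in lower case.

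The first comparison asked how the 9 genes differ between sedentary pain and control in females. Cnr2 and Abhd12 rose, and Mgll, Abhd6 and Napepld fell, while Dagla, Daglb and Faah did not pass the test and Cnr1 had too few counts to be tested. These are 5 calls among the 8 members that passed the low-count filter, at an adjusted p under 0.05 (edgeR quasi-likelihood test, Benjamini-Hochberg over 14511 genes). In this comparison 33.5% of all tested genes were called, 19.6% as higher and 13.9% as lower in sedentary pain. With unadjusted p under 0.05, 6 of the 8 members passed, Dagla included, against 47.6% of all. Groups did not overlap in CPM for 4 of the members, Cnr2, Mgll, Abhd12 and Napepld, against 26.3% of all tested genes. Cnr2 passed the filter through the group in which it was high, which favours a difference. Without it the calls are 4 of 7 and the non-overlapping members 3 of 7. Because this is bulk tissue, fewer cells of a type and less RNA per cell cannot be told apart for any of these genes.

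**Figure D2:**
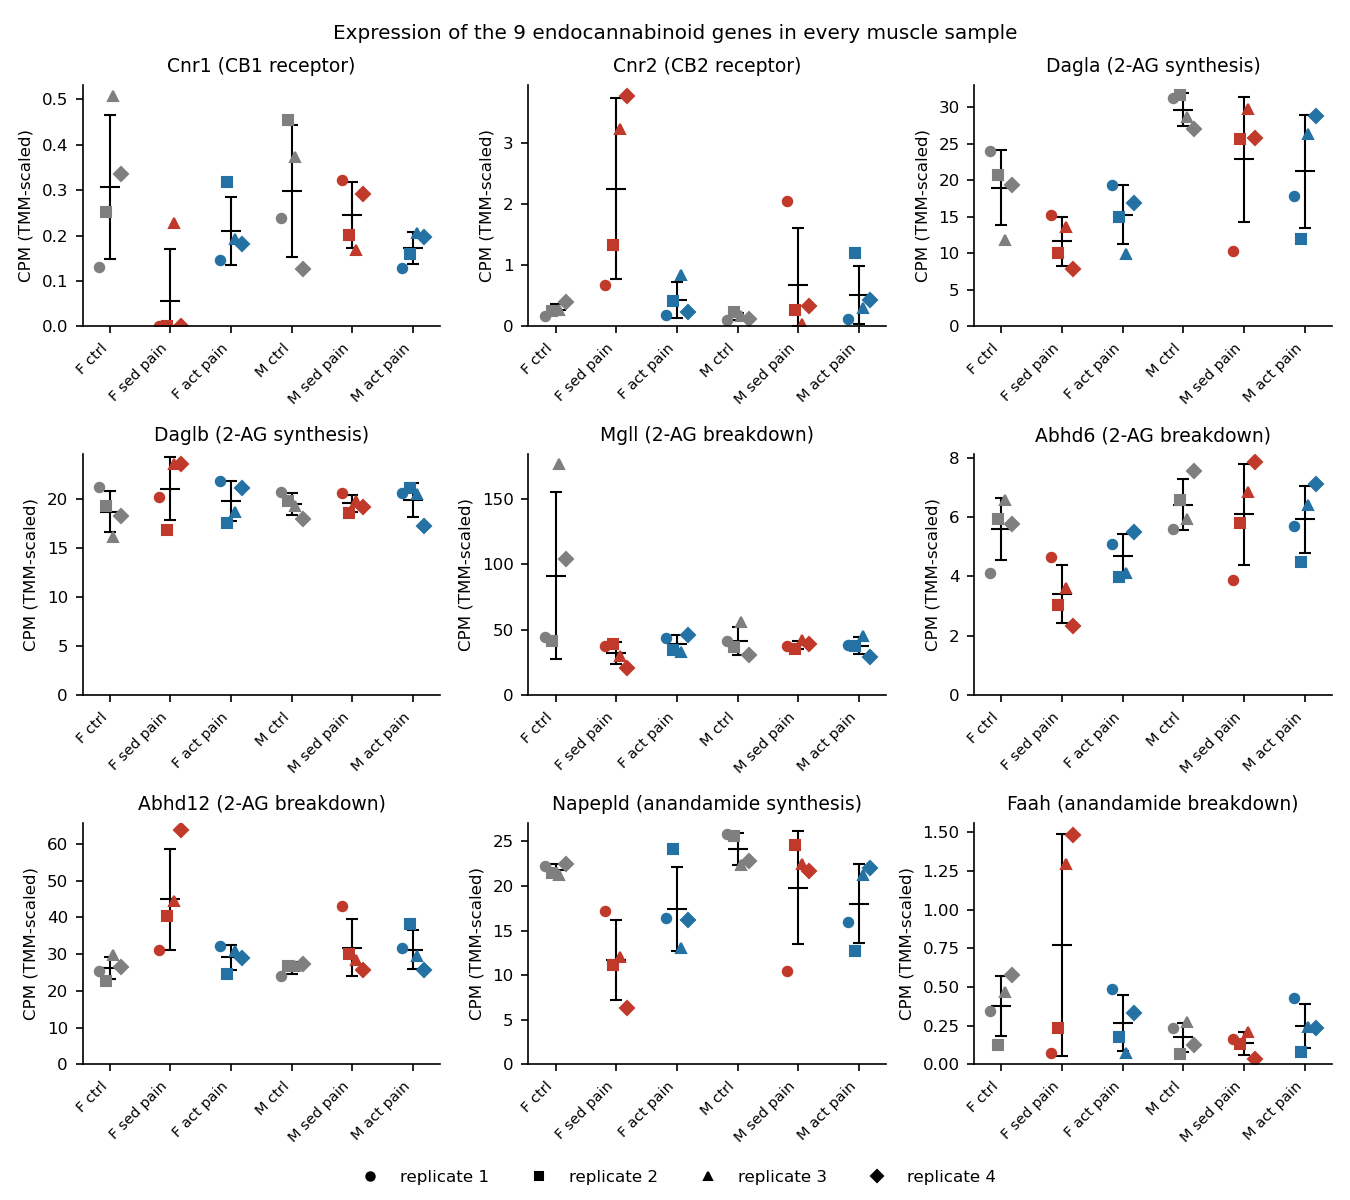
CPM of each gene in every sample (vertical axes, linear from 0), in females (F) and males (M) of the control (ctrl, grey), sedentary pain (sed, red) and active pain (act, blue) groups, with the mean ± SD in black and the replicate number as the marker shape. Female sedentary pain lies above its control for Cnr2 and Abhd12 and below it for Mgll and Napepld in all 4 samples, and 1 male sedentary pain sample, replicate 1, departs from its group for Cnr2, Dagla, Abhd12 and Napepld.

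Cnr2 (ENSMUSG00000062585, chr4:135895394-135920207 in GRCm38, plus strand) encodes CB2, the cannabinoid receptor of immune cells. In female controls it was at 0.173, 0.252, 0.273 and 0.397 CPM, and in female sedentary pain at 0.680, 1.34, 3.24 and 3.77 CPM. All 4 pain samples were above all 4 controls, and replicates 3 and 4 were the highest of the 24 samples. This was a log2 fold change of 2.99 with an SE of 0.60 (adjusted p = 0.00524, edgeR quasi-likelihood). These values rest on 4 to 13 counts per control library and 18 to 107 per pain library, and Cnr2 passed the low-count filter through the group in which it was high. Without that filter the log2 fold change was 2.95 (adjusted p = 0.0051 over 26069 genes in edgeR). In the library-number subsets it was 2.18 for replicates 1 and 2, where it was not called (adjusted p = 0.133 in edgeR), and 3.34 for replicates 3 and 4 (adjusted p = 0.00876).

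In female active pain Cnr2 was at 0.196, 0.424, 0.847 and 0.243 CPM. Only replicate 3 of that group reached the range of sedentary pain, and 2 of the 4 samples were above every control. Cnr2 was the only member called between active and sedentary pain in females, with a log2 fold change of -2.37 and an SE of 0.57 (adjusted p = 0.0328, edgeR). In that comparison 11.9% of tested genes were called, 2.51% as higher and 9.41% as lower in active pain. These calls moved with the fit: 1730 of 14511 genes were called in the main one, 0 of 14162 with only the 2 groups fitted, 0 of 15348 without female control replicates 3 and 4 and 174 of 26069 without the low-count filter. With unadjusted p under 0.05, 3 members passed, Cnr2, Abhd12 and Napepld, against 32.2% of all genes, and no member was without overlap, against 11.8%. The call was lost without active pain replicate 1, 2 or 4 or sedentary pain replicate 3 or 4, with adjusted p between 0.0657 and 0.101 in edgeR, and when only these groups were fitted (adjusted p = 0.0877). It was also lost without the low-count filter, which Cnr2 had passed through the sedentary pain group, at -2.34 (adjusted p = 0.0545, edgeR), and with female control replicates 3 and 4 left out, at -2.35 (adjusted p = 0.0537). In these fits the log2 fold change was between -2.04 and -2.40. It was smaller in replicates 1 and 2 only, at -1.63 (adjusted p = 0.368), and with 1 surrogate variable, a covariate estimated from the counts themselves, at -0.65, and neither was called, while replicates 3 and 4 gave -2.71 (adjusted p = 0.0225, edgeR). Against control, active pain gave a log2 fold change of 0.61 with an interval of -0.75 to 1.98.

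In males Cnr2 was at 0.102, 0.245, 0.170 and 0.126 CPM in controls. Sedentary pain had 2.06 CPM in replicate 1 and 0.268, 0.0422 and 0.327 CPM in the others, and active pain 0.129, 1.20, 0.308 and 0.435 CPM. The high samples were the libraries with the highest macrophage and neutrophil sums of their groups, sedentary pain replicate 1 and active pain replicate 2, and the groups overlapped. Cnr2 did not pass the male low-count filter, and without the filter its log2 fold change in sedentary pain was 2.01 (adjusted p = 0.643, edgeR). The female change minus the male change was 0.98 with an SE of 1.19 (adjusted p = 0.795, edgeR over 15103 genes), and 2.5 (adjusted p = 0.0964) without those 2 male libraries.

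Cnr1 (ENSMUSG00000044288, chr4:33924593-33948831 in GRCm38, plus strand) encodes CB1, the receptor abundant on neurons. It had 3 to 13 counts per library in female controls, at 0.130, 0.252, 0.507 and 0.336 CPM. In female sedentary pain it had 0 counts in replicates 1, 2 and 4, which at 3 counts allows up to 0.113, 0.175 and 0.106 CPM, and 7 counts or 0.227 CPM in replicate 3. Female active pain had 0.147, 0.318, 0.192 and 0.182 CPM. All male samples held Cnr1 counts, at 0.126 to 0.454 CPM in controls, 0.169 to 0.323 CPM in sedentary pain and 0.129 to 0.205 CPM in active pain. Female sedentary pain was thus the only group with samples at 0, and its replicate 3 overlapped the controls. Without the low-count filter the female log2 fold change of Cnr1 was -2.22 (adjusted p = 0.0915, edgeR), so the difference did not pass the test. Limits from counts cover counting error only.

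Dagla (ENSMUSG00000035735, chr19:10245265-10304877, minus strand) and Daglb (ENSMUSG00000039206, chr5:143464584-143505942, plus strand) encode the diacylglycerol lipases that make 2-AG. Dagla was at 24.0, 20.7, 11.8 and 19.4 CPM in female controls, 15.2, 10.04, 13.6 and 7.83 CPM in sedentary pain and 19.3, 15.0, 9.89 and 16.96 CPM in active pain. The female groups overlapped, since control replicate 3 lay among the pain samples. In sedentary pain the log2 fold change was -0.71 with an SE of 0.27 (adjusted p = 0.0595, edgeR), and it passed the threshold in DESeq2 (adjusted p = 0.0388) and with the library-number term (adjusted p = 0.0442 in edgeR). In males Dagla was at 27.04 to 31.7 CPM in controls, and sedentary pain had 10.4 CPM in replicate 1 and 25.6 to 29.8 CPM in the others. Male active pain had 17.9, 12.03, 26.4 and 28.8 CPM. Male controls had a higher mean than female controls, 29.7 ± 2.23 against 19.0 ± 5.15 CPM, a log2 difference of 0.64 that did not pass the test over all genes (adjusted p = 0.333, edgeR).

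Daglb varied least of the 9 genes, from 16.1 to 23.5 CPM over the 24 samples. Its group means ran from 18.7 ± 2.11 CPM in female controls to 21 ± 3.19 CPM in female sedentary pain. The log2 fold change between those groups was 0.15, with an interval of -0.15 to 0.45, and in males it was 0.03, with an interval of -0.18 to 0.23. Of its 9567 exon bases, 24.1% overlap exons of Rac1 on the opposite strand, a gene with 128059 counts in all against 12703 for Daglb. The strand setting of the counting was not given in the sources used here, so the Daglb values are uncertain.

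Mgll (ENSMUSG00000033174, chr6:88724412-88828360 in GRCm38, plus strand) encodes monoacylglycerol lipase, the main hydrolase of 2-AG, which in fat cells also completes the breakdown of triglycerides. In female controls it was at 44.2, 41.1, 177 and 104 CPM. Sedentary pain had 37.7, 39.5, 30.4 and 21.1 CPM and active pain 43.6, 34.7, 33.2 and 46.2 CPM. All sedentary pain samples were below all controls, and control replicates 3 and 4 were the highest of the 24 samples. The log2 fold change in sedentary pain was -1.53 with an SE of 0.41 (adjusted p = 0.0186, edgeR). In replicates 1 and 2 it was -0.15 (adjusted p = 0.615) and in replicates 3 and 4 it was -2.46 (adjusted p = 0.00362, edgeR). With female control replicates 3 and 4 left out, the log2 fold change was -0.44 (adjusted p = 0.198, edgeR), with replicate 3 alone left out it was -0.99 (adjusted p = 0.0401), and without sedentary pain replicate 4 the call was also lost (adjusted p = 0.0591).

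The same control libraries were high in fat cell and lipolysis genes. Lipe, which encodes hormone-sensitive lipase, was at 29.5, 20.6, 245 and 126 CPM in female control replicates 1 to 4, and Pnpla2, which encodes adipose triglyceride lipase, at 187, 171, 547 and 421 CPM. The summed CPM of the 8 fat cell markers was 4684 to 10181 in female controls, 1582 to 4049 in female sedentary pain and 3375 to 4647 in female active pain. Car3, which muscle also expresses, made up much of these sums. Of the 8 markers, 7 fell in female sedentary pain, with a median log2 fold change of -2.87 against -0.02 over all tested genes, among them Lep at -4.26 (adjusted p = 0.0158, edgeR), Plin1 at -3.04, Car3 at -0.96, Adipoq at -2.99 (adjusted p = 0.0315) and Fabp4 at -2.25. Of 5 lipolysis genes, 2 fell and none rose, Abhd5 at -0.74 (adjusted p = 0.00875, edgeR) and Lipe at -1.93 (adjusted p = 0.0367). In sedentary pain Lipe was at 17.6, 31.5, 36.3 and 26.8 CPM and Adipoq at 6.46, 15.8, 45.7 and 8.04 CPM, which overlaps control replicates 1 and 2 for both genes. No fit of these genes without control replicates 3 and 4 was made. Across the 24 samples the log2 CPM of Mgll correlated with the mean log2 CPM of the lipolysis list at r = 0.92 and with that of the fat cell list at r = 0.84, as a description over samples that share groups. The part of the fat cell genes in the Mgll result was not tested beyond leaving out those controls.

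**Figure D3:**
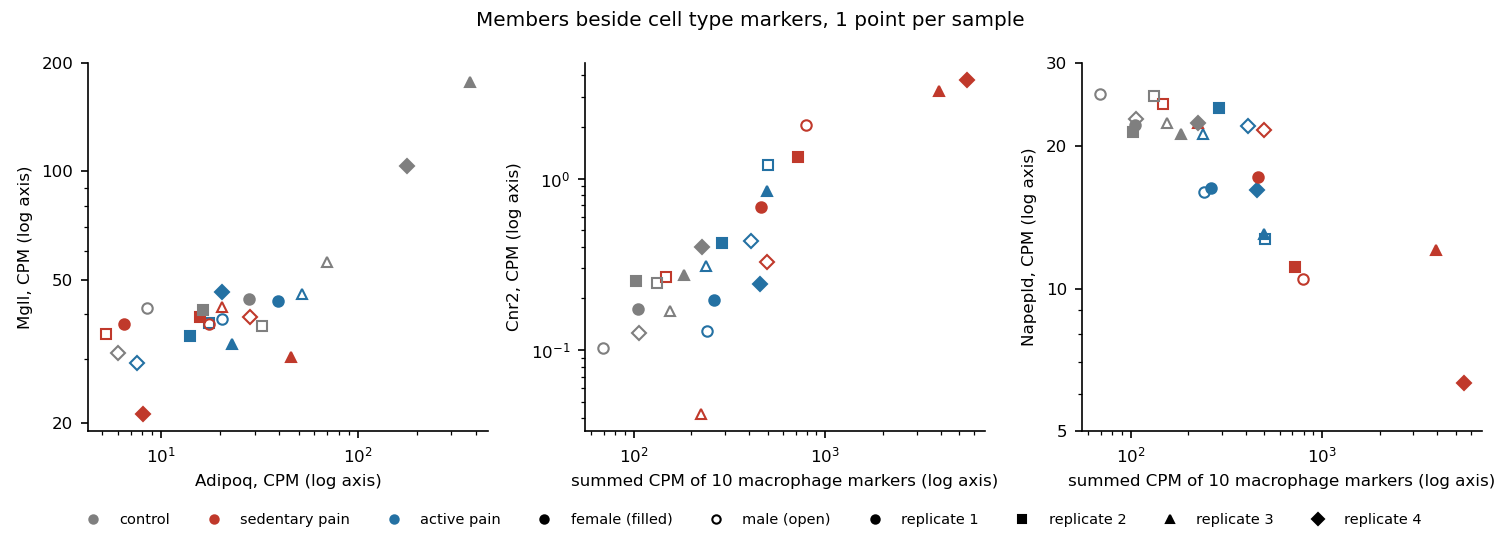
Mgll against Adipoq (left) and Cnr2 and Napepld against the summed CPM of 10 macrophage markers (middle and right), 1 point per sample on log axes, with females filled, males open, conditions by colour and replicates by marker shape. The 2 samples with Mgll above 100 CPM are the female controls with Adipoq at 374 and 178 CPM, and Cnr2 is highest and Napepld lowest in the same sample, female sedentary pain replicate 4, which has the highest macrophage marker sum.

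In males Mgll showed no such spread. It was at 41.6, 37.1, 55.9 and 31.2 CPM in controls, 37.6, 35.2, 42.05 and 39.3 CPM in sedentary pain and 38.8, 37.9, 45.6 and 29.3 CPM in active pain. The groups overlapped, and the log2 fold change in sedentary pain was -0.09, with an interval of -0.48 to 0.31. The female change minus the male change was -1.40 with an SE of 0.47 and did not pass the test over all genes (adjusted p = 0.432, edgeR interaction over 24 samples). Without female control replicates 3 and 4 it was -0.35 (adjusted p = 0.670). Male controls were below female controls by a log2 difference of -1.14 (adjusted p = 0.0705, edgeR), and by -0.06 when those 2 female controls were left out.

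Abhd6 (ENSMUSG00000025277, chr14:8002902-8056763 in GRCm38, plus strand) encodes a hydrolase of 2-AG on the inner side of the plasma membrane. It was at 4.12, 5.93, 6.56 and 5.77 CPM in female controls, 4.65, 3.04, 3.63 and 2.33 CPM in sedentary pain and 5.09, 3.99, 4.12 and 5.5 CPM in active pain. Sedentary pain lay below every control in 3 of 4 samples. Its log2 fold change was -0.73 with an SE of 0.23 (adjusted p = 0.0337, edgeR), the call closest to the threshold. It was lost without any 1 of female control replicates 2, 3 and 4 or sedentary pain replicates 2 and 4, with adjusted p from 0.0687 to 0.0977 in edgeR, and with female control replicates 3 and 4 both left out it was -0.59 (adjusted p = 0.161). The subsets gave -0.38 for replicates 1 and 2 (adjusted p = 0.482) and -1.06 for replicates 3 and 4 (adjusted p = 0.0475, edgeR). In males Abhd6 was at 5.59 to 7.55 CPM in controls, 3.88 to 7.86 CPM in sedentary pain and 4.48 to 7.12 CPM in active pain.

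Abhd12 (ENSMUSG00000032046, chr2:150832493-150904741 in GRCm38, minus strand) encodes a hydrolase that acts on 2-AG and on lysophosphatidylserine. In female controls it was at 25.4, 22.7, 29.9 and 26.6 CPM, and in sedentary pain at 31.1, 40.5, 44.3 and 63.8 CPM, above every control. This gave a log2 fold change of 0.76 with an SE of 0.19 (adjusted p = 0.0132, edgeR). Correction for GC content and gene length lowered it to 0.34 (adjusted p = 0.0505), a correction that also moved the median of all genes from -0.02 to -0.14 and the share of calls that were higher from 58.5% to 43.9%. Female active pain had 32.2, 24.5, 31.0 and 29.1 CPM, and against sedentary pain the log2 fold change was -0.60 with an SE of 0.19 (adjusted p = 0.057, edgeR). In males the values were 23.9 to 27.4 CPM in controls, 43.2, 30.04, 28.4 and 25.6 CPM in sedentary pain and 31.7, 38.3, 29.4 and 25.6 CPM in active pain, highest in the same 2 libraries as Cnr2. The female subsets gave 0.57 for replicates 1 and 2 (adjusted p = 0.213) and 0.93 for replicates 3 and 4 (adjusted p = 0.0293, edgeR).

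Napepld (ENSMUSG00000044968, chr5:21662901-21701396 in GRCm38, minus strand) encodes the phospholipase D that releases anandamide and related N-acylethanolamines. Female controls were close together at 22.2, 21.4, 21.2 and 22.4 CPM, and sedentary pain was lower in all 4 samples at 17.2, 11.1, 12.05 and 6.31 CPM. They differed by a log2 fold change of -0.92 with an SE of 0.27 (adjusted p = 0.0237, edgeR). It was -0.62 in replicates 1 and 2 (adjusted p = 0.261) and -1.26 in replicates 3 and 4 (adjusted p = 0.0302, edgeR), and without control replicate 4 it just missed the threshold at -0.91 (adjusted p = 0.0508). With female control replicates 3 and 4 both left out it was -0.93 (adjusted p = 0.0819). Female active pain had 16.4, 24.1, 13.1 and 16.2 CPM, of which 3 samples were below every control, and its log2 fold change against control was -0.32 with an interval of -0.89 to 0.25.

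Male controls had Napepld at 25.8, 25.6, 22.4 and 22.8 CPM, and active pain at 16.02, 12.7, 21.2 and 22.03 CPM. This was the only member whose male groups did not overlap, in a comparison where 10.4% of all tested genes did not, and the log2 fold change was -0.42 with an SE of 0.25 (adjusted p = 0.634, edgeR). Male sedentary pain had 10.5 CPM in replicate 1 and 21.7 to 24.6 CPM in the others. Replicate 1 was thus the only low sample of that group, and it was also the one with the highest macrophage and neutrophil sums.

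Faah (ENSMUSG00000034171, chr4:115967145-116017926 in GRCm38, minus strand) encodes fatty acid amide hydrolase, the main hydrolase of anandamide. It was scarce, at 0.347, 0.126, 0.468 and 0.580 CPM in female controls, 0.0756, 0.233, 1.30 and 1.48 CPM in sedentary pain and 0.490, 0.176, 0.0770 and 0.334 CPM in active pain. Sedentary pain replicates 3 and 4 were the highest of all 24 samples while replicate 1 was below every control. The log2 fold change was 1.01 with an SE of 0.75 and an interval of -0.63 to 2.65 (adjusted p = 0.301, edgeR). With 1 surrogate variable its direction turned to -1.95 (adjusted p = 0.486). Male groups were at 0.0699 to 0.271, 0.0364 to 0.211 and 0.0800 to 0.431 CPM in control, sedentary pain and active pain, and Faah did not pass the male low-count filter.

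No member was called in any comparison within males (edgeR over 14404 genes, 6 members tested), nor was any at an unadjusted p under 0.05 or in DESeq2. There, none of the tested genes was called in edgeR, and DESeq2 called 270 of 14233 in sedentary pain, 127 in active pain and 0 between the pain groups. In edgeR there were 1273 at an unadjusted p under 0.05 in sedentary pain against control, or 8.84%. Groups of sedentary pain and control did not overlap for 0 members and 8.07% of genes, and those of active and sedentary pain for 0 members and 0.653%. In active pain against control 1045 genes, or 7.25%, and between the pain groups 121, or 0.840%, were at an unadjusted p under 0.05. The male log2 fold changes in sedentary pain were -0.36 for Dagla, 0.03 for Daglb, -0.09 for Mgll, -0.06 for Abhd6, 0.29 for Abhd12 and -0.27 for Napepld, each with an interval that holds 0. Without sedentary pain replicate 1 and active pain replicate 2 they were -0.12 for Dagla, -0.0049 for Daglb, -0.08 for Mgll, 0.11 for Abhd6, 0.11 for Abhd12 and -0.06 for Napepld, closer to 0 for all but Abhd6.

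None of the 3 changes was shown to differ between the sexes for any member (edgeR interaction, 8 members tested, 0 called and 0 in DESeq2). This was also the background: edgeR called 0 of 15103 genes for each of the 3, and DESeq2 called 15 of 15088 for sedentary pain, 3 for active pain against control and 111 for active against sedentary pain. At an unadjusted p under 0.05, Mgll differed in sedentary pain and in active pain against control, and Abhd12 and Faah in active against sedentary pain. For the last, leaving out male sedentary pain replicate 1 gave calls for Abhd12 and Cnr2. Across all genes the count at an unadjusted p under 0.05 was 1446 of 15103, or 9.57%, for sedentary pain, 2.03% for active pain against control and 14.7% for active against sedentary pain.

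Averaged over the sexes in 1 fit of 24 samples, 4 of the 8 tested members were called in sedentary pain, against 37.4% of all tested genes, 22.5% as higher and 14.9% as lower. At an unadjusted p under 0.05 there were 6 members and 50.8% of genes. Cnr2 rose with a log2 fold change of 2.52 and an SE of 0.58 (adjusted p = 0.0035, edgeR), and Abhd12 rose with 0.53 and an SE of 0.13 (adjusted p = 0.00553). Mgll fell with -0.81 and an SE of 0.23 (adjusted p = 0.0137, edgeR) and Napepld with -0.59 and an SE of 0.19 (adjusted p = 0.0197). Without female control replicates 3 and 4, Mgll was at -0.29 and not called (adjusted p = 0.138) and Dagla was called at -0.68 (adjusted p = 0.0404, edgeR). With all samples Dagla and Abhd6 were just above the threshold at -0.54 (adjusted p = 0.0555) and -0.39 (adjusted p = 0.0554, edgeR), and DESeq2 called both, 6 members in all. Each of them was also called in 4 of the 24 fits that left out 1 sample. The Napepld call was lost without female sedentary pain replicate 4, at -0.50 (adjusted p = 0.0504, edgeR). In the male fit sedentary pain gave 0.29 for Abhd12, -0.09 for Mgll and -0.27 for Napepld, none of them called, and Cnr2 was not tested. Over its alternatives the averaged Cnr2 change was 1.71 at the lowest. In active pain, averaged, no member was called against control, where 0.0331% of genes were called, all of them higher, and 15.5% had an unadjusted p under 0.05, Mgll among them. DESeq2 called 505 of 15088 genes there. Against sedentary pain no gene was called in edgeR and 1263 in DESeq2, none of them a member, and 21.7% of genes, Cnr2 and Abhd12 included, had an unadjusted p under 0.05. Between male and female controls no member was called, against 2.83% of genes (1.54% higher and 1.28% lower in males), and 14.9% of genes, Dagla and Mgll included, had an unadjusted p under 0.05.

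**Figure D4:**
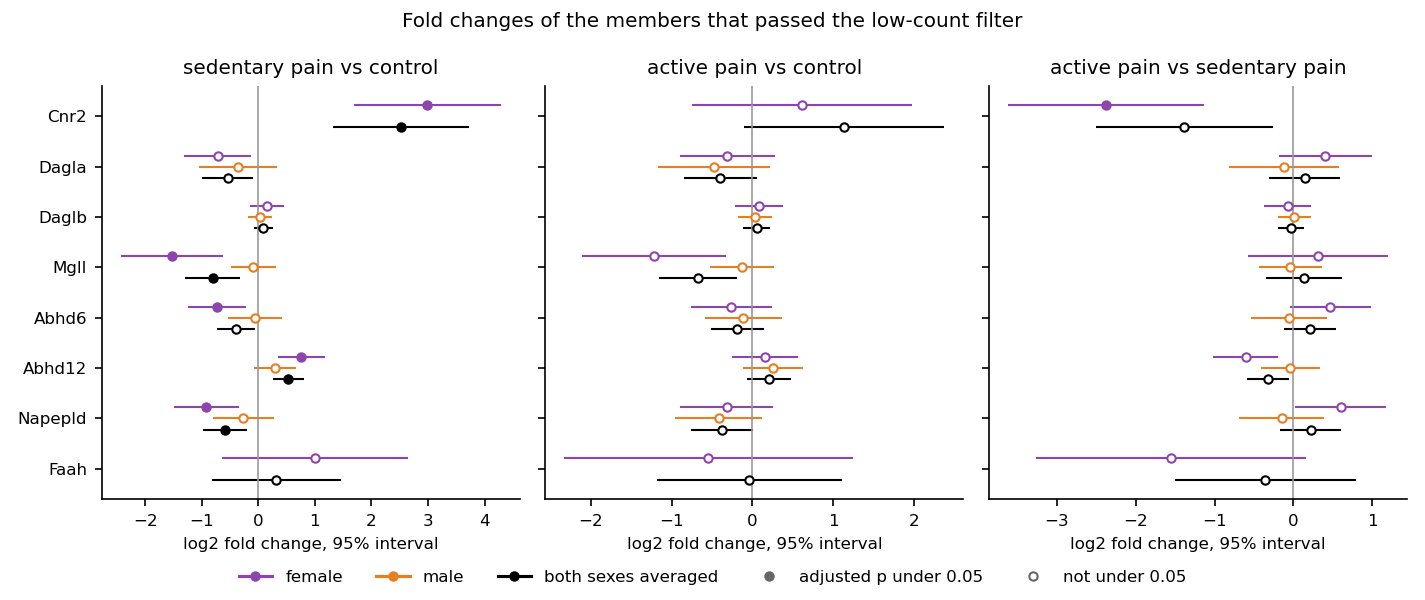
Log2 fold change with its 95% interval for the members that passed the low-count filter (Cnr1 did not in any fit, and Cnr2 and Faah not in males), in females, males and averaged over the sexes, with filled points for an adjusted p under 0.05. Filled points are Cnr2, Mgll, Abhd6, Abhd12 and Napepld in female sedentary pain, the same without Abhd6 in the average, and Cnr2 in female active against sedentary pain.

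Female active pain against control gave no called member, and none of the 14511 genes was called in edgeR, while 1020 were at an unadjusted p under 0.05, or 7.03%. No member was without overlap, against 5.44% of genes. Mgll was the only member with an unadjusted p under 0.05, at -1.22 with an SE of 0.41 (adjusted p = 0.594 in edgeR). Leaving out female control replicates 3 and 4 brought it to -0.11. DESeq2 called 124 genes in this comparison and none of the members. The group means of 8 of the 9 members in active pain, all but Faah, lay between those of control and sedentary pain, a count for which the share over all genes was not computed. Comparisons of active pain with control and of sedentary pain with control share the same 4 control samples.

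Immune marker RNA moved with the same comparison. In female sedentary pain 9 of 10 macrophage markers rose (median log2 fold change 4.31), and the summed CPM of the 6 T cell markers was 0.252 to 1.80 in controls and 2.87, 3.39, 40.3 and 65.0 in sedentary pain replicates 1 to 4. The sums of the 6 B cell markers were 0.303 to 1.47 in controls and 0.794, 2.04, 9.20 and 14.5 in sedentary pain, and those of the 6 neutrophil markers 0.898 to 3.57 and 21.02, 252, 38.7 and 57.1. Of these lists 2 T cell, 2 B cell and 5 neutrophil markers passed the low-count filter, with low counts in controls. Passing in this way favours a difference, and their calls are not counted. Among endothelial markers 0 rose and 2 of 5 fell, among fibroblast markers 2 of 5 rose, none of 5 tested nerve and Schwann cell markers was called, and 1 of 8 muscle fibre markers fell, with all 8 below 0 and a median of -0.54. Female sedentary pain replicates 3 and 4, the libraries in which Cnr2 and Abhd12 were highest, had the lowest muscle fibre sums of the 24 samples, 106234 and 92563 CPM. The mitochondrial shares of female sedentary pain were 8.22%, 3.85%, 5.86% and 2.75% of counts in replicates 1 to 4, against 8.59% to 11.0% in female controls, and replicate 2, with a low share, had the highest muscle fibre sum of its group, 187212 CPM. The part of these differences in the results was not tested. Between active and sedentary pain 7 of 10 macrophage markers fell, where 9.41% of all tested genes were called as lower. With only the 2 groups fitted no gene was called in that comparison. Among macrophage markers in sedentary pain against control, Cd68 rose with a log2 fold change of 4.44 (adjusted p = 0.00225, edgeR) and Itgam with 5.03 (adjusted p = 0.0026). The mean log2 CPM of the macrophage list correlated over the 24 samples with Cnr2 at r = 0.89, with Abhd12 at r = 0.85 and with Napepld at r = -0.87, and with group means removed at 0.83, 0.71 and -0.73. These are descriptions over samples that share groups and the tissue, and the part of immune cell number in the results of Cnr2, Abhd12, Abhd6 and Napepld was not tested. The neutrophil sums of female active pain were uneven, at 4.75, 46.9, 112 and 5.65 CPM in replicates 1 to 4, and the highest was in replicate 3, which also had the highest Cnr2 of that group. The fit with 1 surrogate variable left no female call among the members, with Cnr2 at 0.93 (adjusted p = 0.572), Abhd12 at 0.05 (adjusted p = 0.954), Napepld at -0.11 (adjusted p = 0.943) and Abhd6 at -0.34 (adjusted p = 0.777, edgeR). Mgll kept its size there, at -1.48, but not its call (adjusted p = 0.331, edgeR).

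A wider list of 30 genes was read beside the members: other lipid receptors and channels, other enzymes of synthesis and breakdown, and carriers. Of the 25 that passed the female filter, 8 rose and 9 fell in sedentary pain, where 19.6% of all tested genes rose and 13.9% fell, and the median log2 fold change was -0.04 against -0.02 over all genes. Ces1d, a carboxylesterase that can hydrolyse 2-AG, fell from 172 to 33.7 CPM in the mean, a log2 fold change of -2.37 (adjusted p = 0.00316, edgeR). Its female control values were 100.2, 91.1, 314 and 181 CPM, highest in the same replicates as for Mgll, and sedentary pain was lower in all 4 samples, as for Mgll, at 33.4, 35.8, 48.2 and 17.4 CPM. Naaa, the lysosomal amidase of N-acylethanolamines, rose from 6.98, 8.12, 13.9 and 13.4 CPM to 18.7, 22.8, 143 and 209 CPM, a log2 fold change of 3.20. Plcb2, a phospholipase C of blood cells, rose with a log2 fold change of 3.68 (adjusted p = 0.00477, edgeR). Hrasls, an N-acyltransferase of the pathway to anandamide precursors, fell with a log2 fold change of -0.91 (adjusted p = 0.00477), and Scp2, a lipid carrier, with -0.79 (adjusted p = 0.00698, edgeR).

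Between active and sedentary pain in females 1 of 25 tested genes of the wider list rose and 3 fell, against 2.51% and 9.41% of all genes. Hrasls rose with a log2 fold change of 0.77 (adjusted p = 0.0328, edgeR), and Plcb2 fell with -2.91, Naaa with -2.74 (both adjusted p = 0.0328) and Ppt1, a lysosomal thioesterase, with -1.34 (adjusted p = 0.0498). These calls were lost with only the 2 groups fitted or without female control replicates 3 and 4, where no gene was called. For Naaa, sedentary pain replicates 1 and 2 were at 18.7 and 22.8 CPM and replicates 3 and 4 at 143 and 209 CPM. In males 0 of 22 tested genes of the list were called in any comparison. Averaged over the sexes 8 of 25 rose and 9 fell in sedentary pain, against 22.5% and 14.9% of all genes, among them Ces1d at -1.56 (adjusted p = 0.00044, edgeR), Naaa at 2.05, Plcb2 at 2.91, Scp2 at -0.51 and the lipoxygenase Alox15 at 2.05 (adjusted p = 0.00394).

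**Figure D5:**
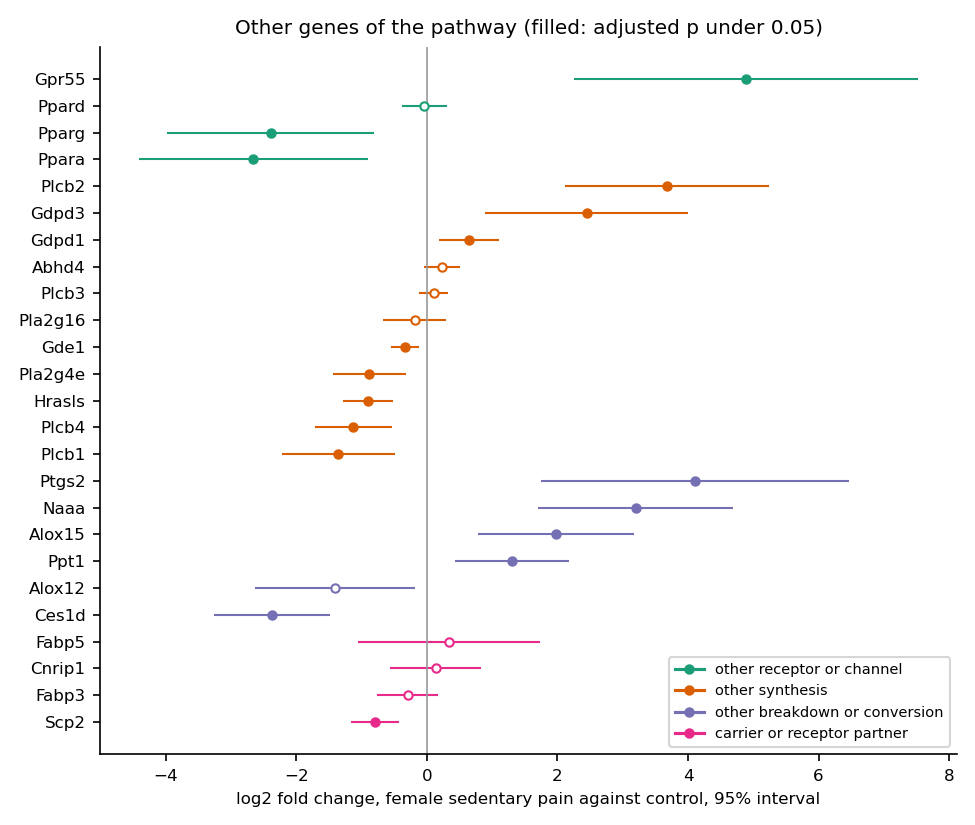
Log2 fold change with its 95% interval in female sedentary pain against control for the 25 tested genes of the wider endocannabinoid list, grouped by role, with filled points for an adjusted p under 0.05. Of these genes 8 lie to the right and 9 to the left of 0 with filled points, and each role holds both filled and open points.

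The members differed in how closely they followed one another over the 24 samples, as Pearson correlation of log2 CPM. Abhd12 and Napepld ran in opposite directions with r = -0.93, and with -0.90 after group means were subtracted. Dagla and Napepld ran together with r = 0.85, and Abhd6 and Napepld with 0.81. Of the 8 members compared, Mgll followed none of the others closely, with r from -0.45 with Daglb to 0.37 with Napepld. Among 15095 other genes, those most like Cnr2 were Runx3 (r = 0.95), Gpr171 (0.94) and Il13ra1 (0.94). Dagla was most like Dusp3 (0.98), Mtss1l (0.96) and Wnk2 (0.96). Mgll was most like Gstz1 (0.94), Dgat2 (0.92) and Tmem120b (0.92), and Abhd6 most like Sema5a (0.93), Zfp354a (0.91) and Ndrg3 (0.91). Abhd12 was most like Cndp2, Arrdc1 (both 0.97) and Rps6ka4 (0.96), and Napepld most like Dcaf6 (0.97), Fam135a and Cdnf (both 0.96). Daglb and Faah had lower best correlations, 0.75 with Susd2 for Daglb and 0.83 with Atp2a3 for Faah. These correlations describe samples that share groups and depth, and they carry no p-value.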

How the data were processed

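RNA of 24 left gastrocnemius samples was read on Illumina stranded libraries as paired ends of 100 bases, per the labels' protocols. The deposited files hold raw read counts, 1 whole number per Ensembl gene and sample, with no normalization found in them. The submitters' processing notes name HISAT2 2.1.0, Salmon 0.9.1, featureCounts and DESeq2 1.24.0, and the builds mm10 and GRCm38.p6; which program made the counts, the annotation version and the strand setting are not given in the sources used here. Symbols were found for 54409 of 54532 genes. Positions and exon lengths came from GENCODE M21 (GRCm38), and promoter sequences from RefSeq (GRCm38.p6).

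Counts were tested with edgeR 4.0.16 in R 4.3.3: TMM scaling, filterByExpr by group (minimum count 10), robust quasi-likelihood F tests, two-sided, with Benjamini-Hochberg adjustment over all genes tested at 0.05. Each sex was fitted with its 12 samples, as the series' design text treats the sexes separately; sex differences, averages over the sexes and the control comparison used all 24. SE and 95% intervals were derived from the F statistic. Correlations used log2 CPM with a prior count of 2. The procedure was tested on simulated counts with the same spread for all genes, changes only in well-counted genes and no outlying libraries. That test therefore does not bear on the single calls here. The 9 members, the gene and marker lists and the tests were chosen with earlier results of these data known. Besides the members, up to 5 genes per list and comparison are named, those past the threshold with the smallest adjusted p, and the 3 genes most correlated with each member; the lipolysis gene Pnpla2 was named after its values were seen.

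Alternatives were DESeq2 1.42.0, RLE scaling, other filters, no robust step, the replicate block, the library-number term, fits of the compared groups alone, a single fit of 24 samples, a log2 fold change of at least 1, replicates 1 and 2 or 3 and 4 only, GC and length correction, 1 surrogate variable (sva 3.50.0) and each sample left out. Leaving out female control replicates 3 and 4, or male sedentary pain replicate 1 with male active pain replicate 2, was chosen after seeing the data. Figures were drawn with matplotlib 3.10.9 in Python 3.11.15.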

Additional observations from a re-analysis of the deposited data

Results flagged for a closer look

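In 4 of the 54 gene and group combinations, each of 4 samples, 1 sample lay far from the others by Dixon's criterion, where chance gives about 1 in 20. Cnr2 was at 2.06 CPM in male sedentary pain replicate 1, against 0.0422 to 0.327 CPM in the other samples of that group. Cnr1 was at 0.227 CPM in female sedentary pain replicate 3, the only sample of its group with counts. Abhd12 was at 23.9 CPM in male control replicate 1, below 26.8 to 27.4 CPM in the others, a difference of a few CPM in a group with an SD of 1.56. Daglb was at 17.2 CPM in male active pain replicate 4, below the other 3 samples of its group.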

How the results depend on the processing

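The number of members called in female sedentary pain against control was 5. It was 6 in DESeq2, which added Dagla, 3 with the replicate block and with only the 2 groups compared (both without Mgll and Abhd6), 2 with a log2 fold change of at least 1 and without female control replicates 3 and 4, 0 in replicates 1 and 2 only and with 1 surrogate variable, and 3 to 6 when 1 sample was left out. The library-number term also called Dagla, and the GC and length correction lost Abhd12 (adjusted p = 0.0505, edgeR). For female active against sedentary pain, where 1 was called, DESeq2, the library-number term, all 24 samples in 1 fit and replicates 3 and 4 only gave 2. Omitting the low-count filter, requiring 50 counts in the mean (which removes Cnr2), only the 2 groups compared, replicates 1 and 2 only, 1 surrogate variable and leaving out female control replicates 3 and 4 gave 0, and leaving out 1 sample gave 0 to 4. Without female sedentary pain replicate 1, it was 4. Averaged over the sexes, sedentary pain gave 4 calls, 6 in DESeq2, and 3 to 6 with 1 sample left out. Where no member was called, leaving out 1 sample gave 0 to 1 for averaged active against sedentary pain, 0 to 2 for the sex difference of that comparison, and 0 to 1 for male against female controls, for which DESeq2 gave 1 (Mgll). The cause of these differences was not tested. Same-numbered samples showed no steady tendency to deviate together. Their mean correlation was 0.10 in females (-0.30 to 0.39) and 0.0065 in males (-0.65 to 0.57), and 6 of 12 female and 3 of 12 male pairs were over 0.1. In females 6 of 24 and in males 5 of 24 correlated best with their own number. With the replicate block Mgll was at -1.37 (adjusted p = 0.0526) and Abhd6 at -0.75 (adjusted p = 0.0635) in edgeR.

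Over single members, called or not, and the alternatives that kept all samples or set several aside, 1070 results stayed on their side of the threshold, 27 lost a call and 11 gained one. With 1 sample left out, 1816 stayed, 13 lost a call and 19 gained one. Most of these were called in neither fit. No called member changed direction in any of these, while results that were not called did, Faah in female sedentary pain among them (-1.95 with 1 surrogate variable). Depth limits Cnr1, Cnr2 and Faah, whose libraries often held fewer than 10 counts.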
